A study of Mus musculus with 9 samples.

Results

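Chromatin accessibility after transduction with hairpin shMed1 #2 was compared with the non-targeting control hairpin (NTC) over every peak of an ATAC-seq series in the murine breast carcinoma line D2A1-d. The comparison rests on 6 of the 9 libraries, 3 of each hairpin, and on all 75936 deposited peaks, of which 75930 were tested. The other 3 libraries carry a second Med1 hairpin, shMed1 #4, and entered the fit to steady the spread. The labels give NTC cells the genotype WT and the shMed1 cells the genotype Med1 Knockdown, and call all of them untreated and of breast origin. All were grown in 10% serum and tagmented for 1 h at 37 °C. The titles number the libraries as biological replicates but do not describe separate cultures or transductions, so p-values measure the spread between these libraries, part of which may be technical. ATAC-seq does not measure MED1 itself, and how far each hairpin lowered it was not analysed here. In bulk libraries a change in every cell and a change in some of the cells cannot be told apart.

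Mediator is a large coactivator complex that passes signals from transcription factors bound at enhancers and promoters to RNA polymerase II. MED1 is the subunit of its middle module best known for contacting nuclear receptors, and it is abundant at strong enhancers. MED4, another middle-module subunit, is tied to the dormancy question from which this series comes. In ATAC-seq a transposase cuts open DNA, so a peak marks a promoter, an enhancer or another exposed element, and its signal rises with the exposure of that element.

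Sequences of 6 promoters are shown because they hold both directions of the change at gene starts. Each runs from 250 bases before to 50 bases after a transcription start (RefSeq, GRCm38.p6), is given 5′ to 3′ on the gene's strand, and lies at 1 of the 3 peaks with the smallest adjusted p each way among peaks, with groups apart, centred within 250 bases of a start. Capitals mark matches, on either strand, to any of 10 short motifs: AP-1 (TGANTCA), CRE (TGACGTCA), ETS (CCGGAAG), the CCAAT box of that spelling, GC box (GGGCGG), NRF1, YY1 (ATGGCGG), E-box (CACGTG), TEAD (GGAATG) and TATA box (TATAAA). The peaks at Gm14137 (chr2:119174259-119174558, + strand), Mxd4 (chr5:34187661-34187960, - strand), a MAX-dimerising repressor, and Trim54 (chr5:31116362-31116661, + strand), a muscle ring-finger protein, were higher with shMed1 #2, by 0.48, 0.39 and 0.91 on the log2 scale.
Gm14137: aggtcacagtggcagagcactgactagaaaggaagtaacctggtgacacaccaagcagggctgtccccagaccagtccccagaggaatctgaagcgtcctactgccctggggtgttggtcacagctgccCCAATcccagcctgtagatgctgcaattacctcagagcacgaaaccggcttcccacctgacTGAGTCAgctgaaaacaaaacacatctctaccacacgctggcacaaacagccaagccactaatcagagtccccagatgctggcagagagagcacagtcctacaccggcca
Mxd4: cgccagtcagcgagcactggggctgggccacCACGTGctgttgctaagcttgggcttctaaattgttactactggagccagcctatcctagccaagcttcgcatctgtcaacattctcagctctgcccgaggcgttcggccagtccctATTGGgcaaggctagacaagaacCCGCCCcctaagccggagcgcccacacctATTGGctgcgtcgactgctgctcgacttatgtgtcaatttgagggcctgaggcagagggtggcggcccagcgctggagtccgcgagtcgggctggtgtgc
Trim54: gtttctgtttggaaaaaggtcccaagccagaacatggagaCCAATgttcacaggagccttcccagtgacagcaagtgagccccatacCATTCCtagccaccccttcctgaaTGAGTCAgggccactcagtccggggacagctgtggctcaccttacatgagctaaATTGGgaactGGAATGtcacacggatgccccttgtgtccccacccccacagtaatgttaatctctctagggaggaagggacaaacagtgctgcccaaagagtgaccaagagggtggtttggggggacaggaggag
The peaks at Ier5 (chr1:155099587-155099886, - strand), an immediate early gene, Tuba1b (chr15:98934341-98934640, - strand), an alpha-tubulin, and Ier5l (chr2:30474150-30474449, - strand), a relative of Ier5, fell by 0.67, 0.57 and 0.54.
Ier5: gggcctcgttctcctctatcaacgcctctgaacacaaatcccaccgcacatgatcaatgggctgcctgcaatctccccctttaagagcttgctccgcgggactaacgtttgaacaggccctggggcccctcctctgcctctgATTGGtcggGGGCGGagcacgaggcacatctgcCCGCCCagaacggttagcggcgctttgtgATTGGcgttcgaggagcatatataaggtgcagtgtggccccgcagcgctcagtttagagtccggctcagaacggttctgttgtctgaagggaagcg
Tuba1b: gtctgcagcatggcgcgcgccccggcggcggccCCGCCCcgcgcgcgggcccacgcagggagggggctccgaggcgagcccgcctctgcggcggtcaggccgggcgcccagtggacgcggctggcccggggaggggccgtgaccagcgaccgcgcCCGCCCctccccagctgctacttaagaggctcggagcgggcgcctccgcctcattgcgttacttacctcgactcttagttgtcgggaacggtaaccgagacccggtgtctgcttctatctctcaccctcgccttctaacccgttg
Ier5l: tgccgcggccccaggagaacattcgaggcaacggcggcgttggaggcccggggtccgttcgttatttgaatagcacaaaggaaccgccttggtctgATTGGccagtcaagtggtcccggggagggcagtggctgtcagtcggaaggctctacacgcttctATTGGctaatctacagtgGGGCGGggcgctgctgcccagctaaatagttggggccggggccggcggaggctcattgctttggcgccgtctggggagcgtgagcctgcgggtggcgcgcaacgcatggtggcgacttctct
Gm14137 and Trim54 each hold 1 AP-1 match, whereas Mxd4 and the 3 promoters that fell hold none. CCAAT boxes are in all 3 promoters that rose and in Ier5 and Ier5l, and GC boxes are in Mxd4 and in all 3 that fell. The Tuba1b promoter overlaps its peak only in its last part, and both of its GC boxes lie outside the peak.

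Over all promoters with a peak, AP-1 matches were also more frequent where the peak rose. RefSeq promoters of 7124 starts had a peak centred within 250 bases, and an AP-1 match lay in 12.1% of the 738 whose peak rose, in 3.68% of the 2935 whose peak fell, in 5.82% of the 3451 that did not pass the test and in 7.81% of all 32851 listed promoters. AP-1 is the dimer of FOS and JUN family factors that answers growth and stress signals. Among promoters with an AP-1 match 22.4% rose and 27.1% fell, against 9.65% and 42.03% of those without one. With every library scaled to the same total, the AP-1 match was in 16.0% of the promoters that rose and in 3.88% of those that fell. The CRE, the site of cAMP-responsive factors, went the other way: it was in 1.76% of those that rose and 5.28% of those that fell. It was in 2.96% of those not called, 3.79% of all promoters with a peak and 1.79% of all listed. The NRF1 motif, common in promoters of housekeeping and mitochondrial genes, was in 6.50% of those that rose and 14.9% of those that fell. CCAAT boxes were in 52.4% and 36.5%, GC boxes in 63.1% and 70.2%, and ETS motifs in 14.4% and 22.7%. GC content had a median of 61.7% in both sets, and the share that fell was between 36.8% and 43.0% in every quintile of GC content. A match is a run of letters and does not show a bound factor, and these shares were not tested.

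Reads in peaks ran from 40.9 to 46.4 M in the NTC libraries and from 37.7 to 53.7 M with shMed1 #2. The deposited normalisation left the summed signal higher with shMed1 #2 (43.4 to 44.2 M against 41.2 to 41.5 M), while the median peak held 203.8 to 206.9 against 206.8 to 208.9 normalised counts. Counts below are as deposited unless stated. A second scaling, to equal totals, shifts the median of all peaks from -0.02 to -0.10 on the log2 scale and turns over many balances of rises against falls, so it is given beside them. Of the 7 epithelial markers checked, only Krt18 and Krt14 had a peak at a gene end, while Krt8, Krt19, Epcam, Cdh1 and Krt5 had none. The mesenchymal marker Vim was the most open (9296 to 9611 summed counts in NTC and 9834 to 10015 with shMed1 #2), and Twist1 and Zeb1 also had peaks, while Prrx1 and Cdh2 had none. Blood markers had gene-end peaks in 3 of 5 genes with sums of 314 to 341 and 351 to 402, endothelium in 1 of 4, neural in 2 of 4 and fat in 0 of 3.

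The effect of shMed1 #2 was broad and mostly modest. Of the tested peaks 17928 were higher (23.6%) and 14781 lower (19.5%) at an adjusted p of 0.05, so 43.1% were called in all. Only 444 peaks (0.585%) were called and changed at least 2-fold, 275 up and 169 down. All 3 shMed1 #2 libraries lay on one side of all 3 NTC libraries at 51.8% of the peaks, above them at 27.2% and below at 24.6%. With equal totals the balance turned over, to 13498 higher and 22132 lower, and quantile scaling gave 15924 and 16829, so whether more peaks rose than fell depends on the scaling.

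The balance of rises and falls differed with the place of a peak. Gene-end peaks, centred within 1 kb of either end of a protein-coding gene, fell far more often than they rose: 4332 of 12225 were lower (35.4%) and 1473 higher (12.0%). The gene body held 25.7% higher and 15.3% lower of 35091 peaks, intergenic sites within 50 kb of a gene end held 25.3% and 18.9% of 20518, and sites farther out held 28.0% and 14.9% of 8096. The strand of most genes could be read from their promoters, and most called falls at gene ends lay at starts. At gene starts 3217 of 8120 peaks were lower (39.6%) and 903 higher (11.1%), whereas peaks at a 3′ end only were 16.4% lower and 18.02% higher of 1704. Start peaks were stronger, with a median level of 1299 normalised counts against 136 at 3′ ends, and strong peaks were called more often. The median log2 changes were -0.11 at starts and -0.06 at 3′ ends. Equal totals moved gene ends to 52.5% lower and 6.72% higher, and gene ends stayed the place with the highest share of losses. Every other balance in this paragraph except that of gene starts turned over with equal totals. The gene body then held 19.8% higher and 23.5% lower, intergenic sites 19.4% and 27.7%, far sites 21.5% and 22.2%, and 3′ ends 13.7% and 25.1%. Quantile scaling kept more rises than falls in the gene body (23.6% and 15.5%) and at far sites (25.6% and 14.1%).

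The share of a library's signal that lies in a place is the same whatever single factor a library is scaled by. Quantile scaling and cyclic loess, which are not single factors, were not applied to these shares. Gene-end peaks held 36.9%, 37.4% and 37.8% of the signal in the NTC libraries and 34.8%, 33.9% and 33.3% with shMed1 #2. The groups did not overlap, and the difference was -3.37 percentage points (exact two-sided permutation p = 0.10, the smallest that 3 against 3 allows). Gene starts alone went from 29.5% ± 0.36 to 26.7% ± 0.62 (SD, n = 3). The gene body gained, from 35.0% ± 0.27 to 36.9% ± 0.53, and far sites went from 7.32% ± 0.082 to 7.89% ± 0.034 (both exact permutation p = 0.10). The places together make up the whole signal of a library. A fall at gene ends and gains elsewhere are therefore not separate results. Peaks at 3′ ends only did not move beyond their spread, at 1.28% ± 0.0061 and 1.305% ± 0.032 (exact permutation p = 0.40).

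**Figure D1:**
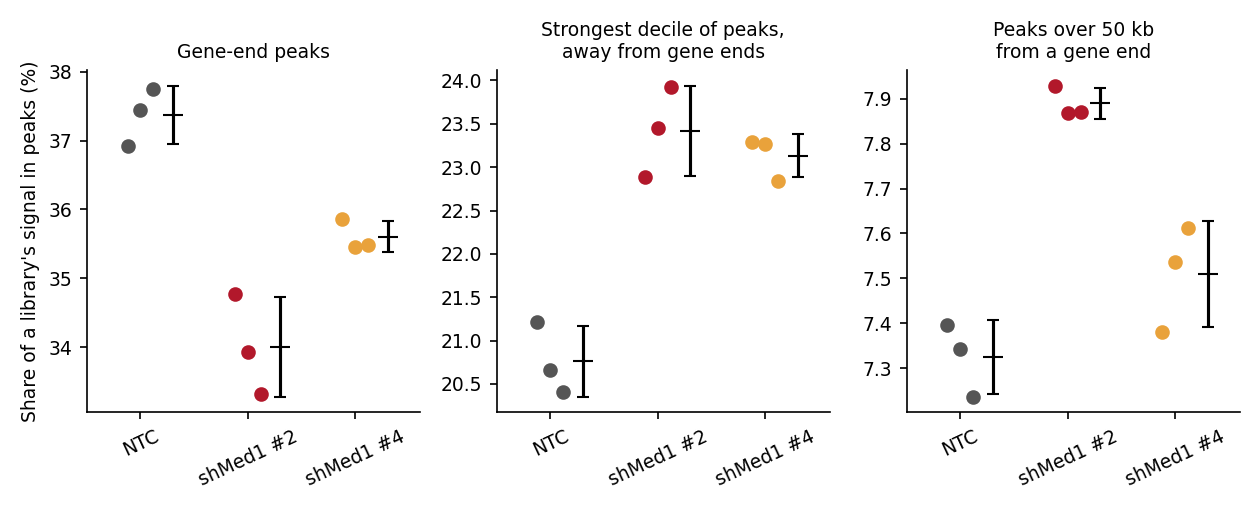
Share of each library's signal in peaks (%, vertical axes not starting at 0) that lies in gene-end peaks, in the strongest decile of peaks away from gene ends, and in peaks over 50 kb from a gene end; points are libraries, bars are the mean ± SD of 3. The shMed1 #2 libraries lie below NTC at gene ends (33.3 to 34.8% against 36.9 to 37.8%) and above NTC in the other panels.

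Away from gene ends the share of peaks that rose grew with the strength of the peak. Peaks were ranked by their mean over the 9 libraries and cut into deciles. Away from gene ends the share that rose climbed from 3.93% in the weakest decile through 18.7% in decile 5 and 48.5% in decile 8 to 73.0% in the strongest, where 2787 of 3819 peaks rose and 211 fell (5.53%). Their median log2 change was 0.26. Calls in either direction also grew with strength, from 43.4% of peaks in decile 5 to 78.5% in the strongest. The climb in the share that rose therefore mixes ease of detection with size of change. The median log2 change as deposited, which does not rest on calls, was -0.09 in decile 1 and -0.13 in decile 3. From there it rose through -0.02 in decile 6 and 0.10 in decile 7 to the 0.26 of the strongest decile. The share that fell was highest in decile 5, at 24.6%. Ranking by the shMed1 #4 libraries alone, which are in neither group, gave 73.0% higher and 5.28% lower in the strongest decile. That ranking is not free of the change, because 73.3% of these peaks also rose with shMed1 #4 against NTC. With equal totals that decile held 60.9% higher and 11.9% lower, with quantile scaling 57.8% and 13.7%, and with cyclic loess 57.6% and 13.9%. Deciles 7 to 10 held more rises than falls under all 4 scalings. The direction of weaker peaks depended on the scaling. Falls outnumbered rises in deciles 1 to 5 as deposited and in deciles 1 to 6 with equal totals, whereas rises outnumbered falls in deciles 1 to 5 with quantile scaling and with cyclic loess (6.94% against 5.51% and 7.23% against 5.21% in decile 1).

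Gene-end peaks followed another course with strength. The share that fell grew to 50.1% in decile 8 and 47.6% in decile 9, and was 29.4% in the strongest decile, where 19.7% rose and the median change was -0.03. With equal totals that decile held 51.3% lower and 9.35% higher. Falls outnumbered rises in every decile as deposited and with equal totals, and in deciles 2 to 10 with the other scalings. In the strongest decile, gene starts held 30.3% lower and 18.5% higher of 3083 peaks, but the 66 peaks at 3′ ends only held 71.2% higher. Far sites of that decile had the largest share of rises, 347 of 424 (81.8%). As shares of signal, the strongest decile away from gene ends went from 20.8% ± 0.41 to 23.4% ± 0.52, the strongest decile at gene ends from 23.3% ± 0.095 to 21.9% ± 0.28, and the weaker 50% of all peaks from 9.61% ± 0.077 to 8.67% ± 0.24 (SD, n = 3; each exact permutation p = 0.10, the smallest possible). Being parts of the same whole, these shares are not separate results either.

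**Figure D2:**
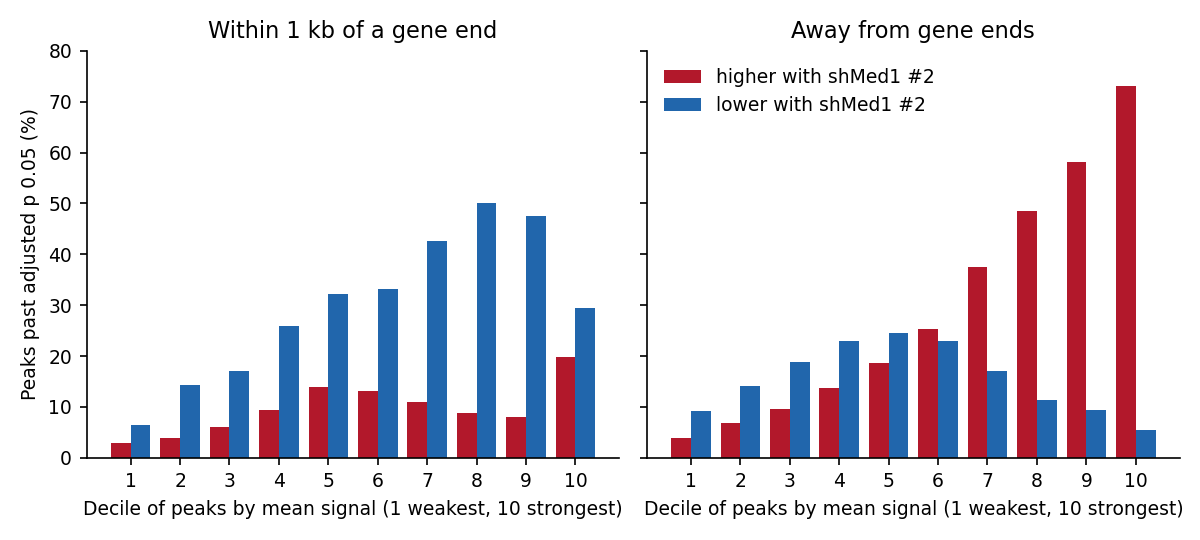
Percent of peaks called higher (red) or lower (blue) with shMed1 #2 at an adjusted p of 0.05, by decile of mean signal, for gene-end peaks (left) and all other peaks (right), scaled as deposited. Away from gene ends the red bars climb to 73.0% in the strongest decile, while at gene ends the blue bars are the taller in every decile.

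The change graded with distance from genes. The share of peaks that fell was 35.4% within 1 kb of a gene end, 20.3% at 1 to 5 kb, 17.5% at 5 to 20 kb, 14.5% at 20 to 50 kb and 12.9% at 50 to 100 kb. The share that rose went from 12.0% through 21.1%, 24.3% and 28.6% to 30.4% over the same steps. Beyond 500 kb from any gene end, 20.1% of 478 peaks rose and 15.9% fell. Around starts of known strand the losses were sharpest just inside the gene: 44.2% of 3347 peaks centred 0 to 250 bases downstream fell and 7.32% rose, against 38.5% and 13.1% of 3772 peaks 0 to 250 bases upstream. At 1 to 5 kb upstream 22.1% fell and 24.9% rose, and at 1 to 5 kb downstream 17.6% fell and 26.8% rose. With equal totals the gradient kept its order, with falls of 52.5%, 30.7%, 26.1%, 21.9% and 19.7% and rises of 6.72%, 15.7%, 18.7%, 22.4% and 24.0% over the steps to 100 kb. The balance turned over at 1 to 5 kb and 5 to 20 kb and beyond 500 kb (15.3% higher, 22.8% lower). At 200 to 500 kb it also turned over, from 25.8% higher and 15.9% lower to 19.3% and 23.1%. It also turned over at 1 to 5 kb upstream of starts (33.0% lower, 18.7% higher) and downstream of them (27.4% lower, 19.9% higher).

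The gene-end peaks with the smallest adjusted p in each direction belonged to genes of varied roles. Krt16, a keratin of stressed epithelium, had the largest rise of the 8 named: its peak (chr11:100249011-100249512) held 782, 731 and 664 normalised counts in NTC and 1589, 1652 and 1710 with shMed1 #2. No library overlapped, and the log2 change was 1.19 ± 0.06 (SE; adjusted p = 3.90e-20). Rapgef3 encodes EPAC1, a cAMP-activated exchange factor for RAP proteins, and its peak at the 3′ end (chr15:97743632-97744133) went from 2180 ± 113 to 3715 ± 226 (SD, n = 3). Als2cl, a relative of the exchange factor alsin, and Podxl, the surface sialomucin podocalyxin, rose by 0.95 ± 0.06 and 0.84 ± 0.06 on the log2 scale.

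The 4 gene-end peaks with the smallest adjusted p among those that fell lay at strongly open gene ends. A small adjusted p is easier to reach at a strong peak, so their strength follows in part from how they were picked. At Ier5 (chr1:155099271-155099772) the values were 2700, 2840 and 3051 in NTC and 1891, 1718 and 1801 with shMed1 #2, a change of -0.67 ± 0.05 (adjusted p = 1.72e-15). At Rpl3, a protein of the large ribosomal subunit (chr15:80083037-80083538), they were 3141, 3158 and 3494 against 2275, 1935 and 2178, a change of -0.62 ± 0.05. At both genes every shMed1 #2 library was below every NTC library. Tuba1b went from 3520 ± 204 to 2379 ± 142, and Ier5l from 3035 ± 80.5 to 2089 ± 60.4 (SD, n = 3).

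The named peaks inside genes lay in genes for receptors, enzymes, a cytoskeletal protein and regulators of transcription and splicing. A peak in Fez2, a member of the FEZ family of transport adaptors (chr17:78403537-78404038), held 1048, 996 and 969 in NTC and 2140, 2130 and 2102 with shMed1 #2, a change of 1.08 ± 0.06 (adjusted p = 3.90e-20). A peak in Ppard, the nuclear receptor PPAR delta (chr17:28269625-28270126), held 1350, 1245 and 1226 against 2400, 2574 and 2913. The groups were apart at both. Peaks in Adgrg1, an adhesion G-protein-coupled receptor, and Ip6k3, an inositol hexakisphosphate kinase, rose by 0.64 ± 0.03 and 0.96 ± 0.05. The falls were in Tfap2a, the transcription factor AP-2 alpha (chr13:40730665-40731166), with 1303, 1439 and 1525 against 966, 798 and 824, and in Actb, beta-actin, with 3430 ± 59.1 against 2537 ± 8.21. Hnrnpl, a splicing regulator, fell by 0.55 ± 0.06, and a weaker peak in Rpgrip1l, a protein of the ciliary transition zone, fell by 1.36 ± 0.14.

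Between genes, an assigned gene is only the nearest within 50 kb. The peak assigned to Csf2, the cytokine GM-CSF, lay 22.7 kb from it (chr11:54224271-54224772) and held 2537, 2372 and 2327 in NTC against 4083, 4282 and 4488 with shMed1 #2, a change of 0.83 ± 0.04. Peaks assigned to Crocc2, Prelp (a leucine-rich matrix proteoglycan) and Gm35364 rose by 1.00 ± 0.05, 0.84 ± 0.05 and 1.14 ± 0.07. The peak assigned to Slc38a4, an amino acid transporter (chr15:97085741-97086242), fell from 734, 725 and 748 to 361, 287 and 348. Peaks assigned to Slc24a3, a cation exchanger, and Car7, a carbonic anhydrase, fell by 0.71 ± 0.06 and 0.95 ± 0.09.

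Farther than 50 kb from any gene end the named peaks have no assigned gene. A peak 93.9 kb from Dlx2, a homeobox gene (chr2:71640358-71640859), held 552, 535 and 506 in NTC and 1347, 1277 and 1495 with shMed1 #2. One 216.3 kb from Dusp4, a MAP kinase phosphatase (chr8:34591088-34591589), held 1441, 1502 and 1410 against 2907, 2815 and 2771. The groups were apart at both, with log2 changes of 1.37 ± 0.07 and 0.96 ± 0.05. Peaks nearest Irf2bp2 and Ndufa10 rose by 0.91 ± 0.05 and 1.04 ± 0.06. The falls were at weaker peaks, nearest Papss1, Pcdh18, Haao and Fer, by 1.36 ± 0.14, 1.07 ± 0.11, 0.87 ± 0.10 and 0.85 ± 0.10.

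**Figure D3:**
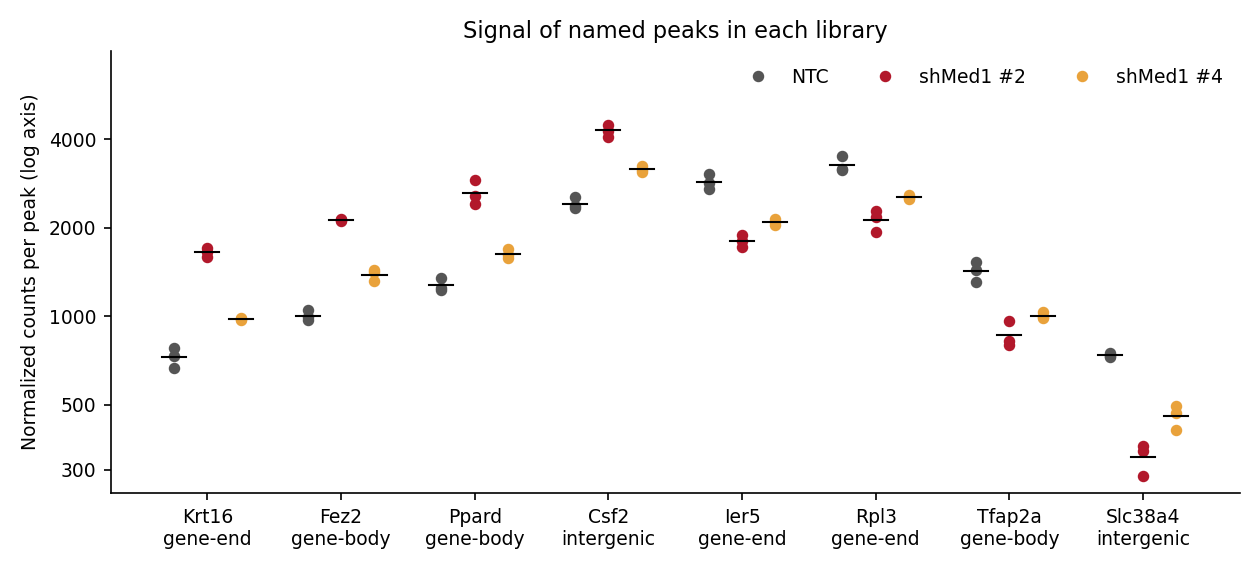
Normalised counts (log axis) of 8 named peaks in each NTC, shMed1 #2 and shMed1 #4 library; points are libraries and dashes the mean of 3. In the 4 peaks on the left every shMed1 #2 library lies above every NTC library, as at Krt16 (1589 to 1710 against 664 to 782), and in the 4 on the right below.

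Neighbouring peaks changed alike. For adjacent peaks under 1 kb apart the log2 changes had a Pearson r of 0.56 over 3690 pairs, falling to 0.43 at 1 to 2 kb, 0.28 at 2 to 5 kb, 0.20 at 5 to 10 kb and 0.08 beyond 100 kb. These pairs share libraries and, at the shortest gaps, may share fragments. The deviations of single libraries from their group mean, which carry no group difference, had r of 0.04 to 0.31 in the first bin and 0.01 to 0.07 in the last. Of pairs under 1 kb in which both peaks were called, 92.7% went the same way, against 58.9% beyond 100 kb. Away from gene ends alone the first bin gave 0.55.

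**Figure D4:**
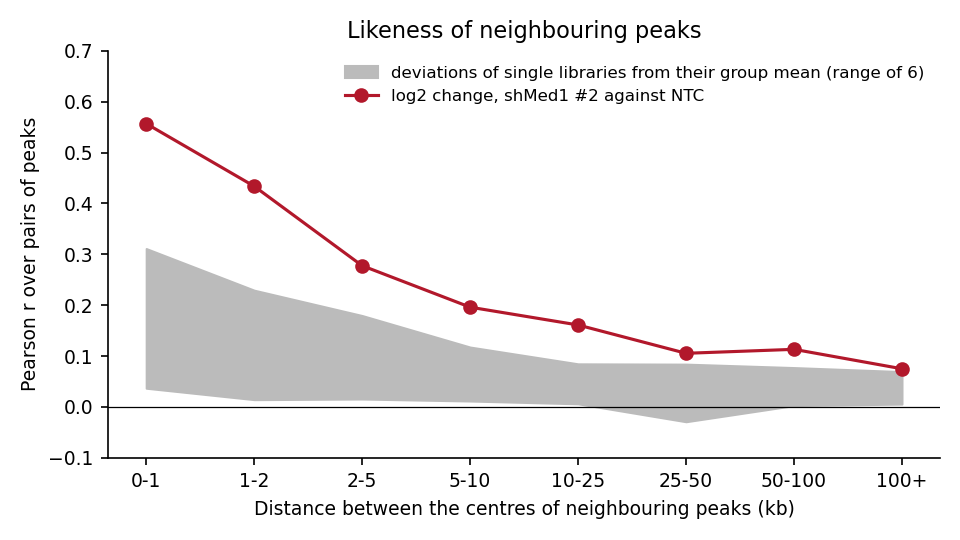
Pearson r of the log2 change between neighbouring peaks, by the distance between their centres (kb), in red; the grey band spans the same r for the deviations of the 6 libraries from their group means. The red line falls from 0.56 to 0.08 and meets the top of the band in the last bin (0.07).

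Peaks in crowded regions rose more often than isolated peaks, and fell less often. Peaks with no other peak within 25 kb were 16.6% higher and 21.6% lower of 6817, and those with 10 or more neighbours were 29.7% higher and 15.7% lower of 2710. Strength rises with crowding, but within the strongest quartile the share that rose still went from 34.2% to 50.4%, and within the weakest quartile the share that fell went from 19.9% to 7.86%. In the third quartile the share that rose stayed between 29.5% and 32.8%. Equal totals lowered the first of these to 23.3% and 39.5%.

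Consecutive called peaks of one direction formed runs. Runs of 5 or more numbered 287 upward, with 1713 peaks, and 66 downward, with 381, but with equal totals 139 were upward and 279 downward. The longest upward runs held 12 peaks over Gipc2 and Dnajb4, the second a heat-shock cochaperone (chr3:152114740-152183477), 12 peaks over Nsmce2 and toward Trib1, a pseudokinase (chr15:59535000-59639345), and 11 peaks in a stretch with no assigned protein-coding gene (chr11:113001005-113103632). Summed over its peaks, the stretch on chromosome 11 went from 13100 ± 404 to 18869 ± 357 (SD, n = 3). Apart from the longest, described next, the downward runs held 10 peaks at Trps1, a GATA-type repressor, and 9 peaks over the Klrb1 family of lectin-like receptors. With equal totals the 11 peaks on chromosome 11 were all still called, but 9 of the 12 on chromosome 3 and 8 of the 12 on chromosome 15.

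The longest run as deposited was downward: 15 peaks around Abt1 on chromosome 13 (chr13:23396294-23453942), a stretch that holds 20 annotated transfer RNA genes. Its summed counts were 8876, 9071 and 9217 in NTC and 7556, 6808 and 6964 with shMed1 #2, so the groups did not overlap. Of its peaks 11 were centred within 500 bases of a tRNA gene. tRNA genes are short and transcribed by RNA polymerase III, not polymerase II. Over the genome 143 peaks lay that close to 1 of 408 tRNA genes, and 96 of them fell (67.1%) while 3 rose, with a median change of -0.27. Away from protein-coding gene ends 79 of 117 fell, with 42 of 51 on chromosome 13 and 37 of 66 elsewhere. Peaks without a tRNA gene in the same places, and with levels between the quartiles of the tRNA peaks, fell in 15.5% of 18256 cases and rose in 40.9%. As a share of signal the tRNA peaks held 0.353%, 0.362% and 0.365% in NTC and 0.316%, 0.301% and 0.294% with shMed1 #2. Away from protein-coding gene ends, peaks near microRNA genes fell in 15 of 71 cases (21.1%) and rose in 22 (31.0%). Those near small nucleolar RNA genes fell in 14 of 69 and rose in 13. Of all peaks away from gene ends 16.4% fell and 25.8% rose. Peaks near small nuclear RNA genes fell in 4 of 36 cases and rose in 19 (52.8%). Their median level was 2701 normalised counts, and 73.0% of strongest-decile peaks away from gene ends rose. Only the tRNA peaks were compared with peaks of like level. With equal totals 119 of the 143 tRNA peaks fell and 1 rose, and the microRNA peaks turned over to 21 falls and 17 rises. The small nucleolar RNA peaks then had 23 falls and 9 rises, and the small nuclear RNA peaks 7 falls and 15 rises. The tRNA class was drawn up after the run had been seen, so these are descriptions with no test, and near-identical copies of these genes make the placing of reads among them uncertain.

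Most genes with many peaks held changes in both directions. Of 1501 genes with at least 10 tested peaks, 1175 (78.3%) had at least 1 peak higher and 1 lower. With 23.6% of all peaks higher and 19.5% lower, 10 or more peaks of any kind would often hold both. The count is therefore not a trait of these genes. Amotl1, an angiomotin that binds YAP, had 11 of 13 peaks higher and none lower (7 higher with equal totals), and Tom1l2, an endosomal sorting adaptor, had 10 of 12 higher. Col6a2, a chain of type VI collagen, and Zdhhc18, a palmitoyltransferase, had 8 of 10 higher each. Abt1 had 11 of 11 lower, Synpo2, an actin-bundling protein, 8 of 10, Skap2, a signalling adaptor, 8 of 11, and Clip2, a microtubule-binding protein, 7 of 10. Where the start peak of a gene fell, 24.7% of 9606 other peaks of those genes rose and 17.5% fell. Where it rose, 30.7% of 3155 rose and 13.9% fell, and where it was not called, 27.8% of 12199 rose and 15.0% fell. With equal totals these shares were 19.1% and 25.8%, 24.8% and 21.0%, and 21.5% and 22.6%.

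On the scale of 1 Mb the medians of 1684 windows lay between -0.50 and 0.46. The highest were over Cdh13, an atypical cadherin (13 peaks, 9 higher), a window on chromosome 12 with no assigned gene (0.40) and the Sox5 and Bcat1 window (0.36). Low windows lay around Kcnj2, a potassium channel gene (12 peaks, 8 lower, -0.50) and over Rbms3 (-0.49). By chromosome the share that rose ran from 16.5% on X to 27.5% on chromosome 12.

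Gene lists were read against these backgrounds, 35.4% lower and 12.0% higher for gene ends, and 25.8% higher and 16.4% lower elsewhere. The backgrounds were not matched to the lists by peak strength. The Mediator complex genes had 16 of 31 gene-end peaks lower and 1 higher, and 31 of 112 other peaks higher and 11 lower. At Med1 itself the start peak did not pass the test as deposited, with 2066, 2141 and 2134 in NTC and 2152, 2049 and 1869 with shMed1 #2 (-0.07 ± 0.05, adjusted p = 0.311), and was called lower with equal totals (-0.15, adjusted p = 0.0122). The groups overlapped. The Med4 start peak fell, from 687, 687 and 701 to 553, 546 and 484 (-0.39 ± 0.08, adjusted p = 0.000131), with no overlap. Start peaks of Med25 and Med6 fell by 0.66 ± 0.08 and 0.54 ± 0.07, and inner peaks of Med13l, of the kinase module, and Med24, of the tail, rose by 0.65 ± 0.05 and 0.70 ± 0.07.

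Among genes for the basic machinery of transcription and translation, most gene-end peaks were lower. RNA polymerase II and general factor genes had 25 of 37 gene-end peaks lower (67.6%) and 1 higher, with a median of -0.25. Polr2a, the largest polymerase subunit, went from 2846, 2928 and 3046 to 2407, 2153 and 2311 (-0.36 ± 0.05), and Tbp, the TATA-binding protein, fell by 0.45 ± 0.07. Ribosomal protein genes had 55 of 79 lower (69.6%) and 3 higher, with a median of -0.26, and Rpl28 went from 1743, 1726 and 1878 to 1326, 1197 and 1136. Their other peaks had 25 higher and 26 lower of 106, and 17 and 35 with equal totals. Cell cycle genes had 19 of 42 gene-end peaks lower and 5 higher. Top2a, the mitotic topoisomerase, and Ccnd1, cyclin D1, fell by 0.58 ± 0.07 and 0.52 ± 0.06, while a peak assigned to E2f8 rose by 0.54 ± 0.06.

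The AP-1 and immediate early genes had the highest share of rises away from gene ends among the 20 lists, 70 of 151 peaks (46.4%) against 11 lower. Their gene-end peaks were 8 higher and 13 lower of 31. The peaks of this list were strong, with a median level of 972 normalised counts over all 182, gene ends included. Of all peaks away from gene ends, 48.5% rose in decile 8 (median level 677) and 58.1% in decile 9 (1201). The share of this list was no higher than in those deciles, but the level of its 151 peaks away from gene ends was not computed alone. A peak in Mafk, a small MAF factor, went from 3074, 2859 and 2658 to 4210, 4706 and 5013 (0.70 ± 0.05), and one assigned to Fos, a core AP-1 subunit, rose by 0.65 ± 0.05. The start peak of Ier3 fell by 0.37 ± 0.04. NF-kappaB and inflammatory genes had 42 of 118 other peaks higher (35.6%) and 14 lower (11.9%), against 25.8% and 16.4% of all peaks away from gene ends. The median level of this list, gene ends included, was 459. Away from gene ends 37.4% of all peaks rose in decile 7 (median level 395), so its share was not set apart from peaks of like strength. A second Csf2 peak rose by 0.77 ± 0.05, and the chemokine gene Cxcl5 fell at its end by 0.42 ± 0.07. With equal totals the AP-1 list still had 52 rises and 23 falls away from gene ends, and the NF-kappaB list 30 and 22.

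Adhesion, matrix and actin genes leaned upward away from gene ends. Integrin and focal adhesion genes had 178 of 471 other peaks higher and 52 lower, led by Tns1, the adaptor tensin (2466, 2372 and 2263 against 3566, 3753 and 3904), and Itgb6, the epithelial integrin beta-6 (0.99 ± 0.07). The gene-end peak of Itga5, the fibronectin receptor subunit, fell by 0.33 ± 0.05. Extracellular matrix genes had 148 of 379 higher and 57 lower, with peaks assigned to Col5a1 and Tgfbi up by 0.75 ± 0.05 and 0.57 ± 0.04. At gene ends, Thbs1, thrombospondin-1, fell from 244, 241 and 226 to 88, 98 and 89 (-1.36 ± 0.13), and Timp3, a metalloproteinase inhibitor, from 639 ± 46.2 to 386 ± 41.1. Actin nucleator and formin genes had 68 of 199 higher and 19 lower. With equal totals these 3 lists still had more rises than falls away from gene ends (132 and 80, 122 and 75, 58 and 31). Inner peaks of Spire1 rose by 1.13 ± 0.09 and 0.79 ± 0.06, whereas Arpc3, of the Arp2/3 complex, fell at its gene end by 0.54 ± 0.09.

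Signalling and identity lists were mixed. TGF-beta and BMP genes had 73 of 213 other peaks higher and 28 lower. Skil, a SMAD corepressor, rose at its gene end by 0.57 ± 0.04, and a peak assigned to Smad3 rose by 0.73 ± 0.06, while the gene end of Smad7, the inhibitory SMAD, fell by 0.33 ± 0.05. YAP and TEAD genes had 100 of 318 higher and 37 lower: inner Tead4 rose by 0.96 ± 0.06, a peak assigned to Ccn1, a YAP target, rose by 0.61 ± 0.04, and peaks of Ajuba, a LIM protein of the Hippo pathway, fell. Over all 247 of its peaks the TGF-beta list was 76 higher (30.8%) and 40 lower (16.2%), and 61 and 62 with equal totals. Mesenchymal genes were 56 (29.2%) and 33 (17.2%) of 192, and 39 and 60 with equal totals. Epithelial genes were 38 (28.1%) and 26 (19.3%) of 135, and 30 and 32 with equal totals. Over all tested peaks 23.6% were higher and 19.5% lower, and 17.8% and 29.1% with equal totals. Runx2 rose by 0.56 ± 0.04 and Elf3, an epithelial ETS factor, by 0.66 ± 0.05, while Krt18 at its gene end fell by 0.78 ± 0.13.

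Dormancy-linked genes were 39 higher (23.4%) and 38 lower (22.8%) of 167 peaks, and 26 and 62 with equal totals. A pair of peaks assigned to Bhlhe40, a circadian repressor linked to quiescence, rose by 0.77 ± 0.06 and 0.74 ± 0.07, while Thbs1 fell as above. Nuclear receptor genes had 29 higher (15.8%) and 43 lower (23.5%) of 183 peaks. Of their 17 gene-end peaks 8 were lower (47.1%) and none higher, against 35.4% and 12.0% of all gene-end peaks. With only 17 peaks this does not set the list apart. Within that list Ppard rose at a second inner peak, from 5133, 4556 and 4676 to 7027, 8345 and 8771, and the start of Nr1h2, the oxysterol receptor LXR beta, fell by 0.63 ± 0.08. Heat shock and chaperone genes had 24 higher (25.3%) and 19 lower of 95, where 23.6% of all peaks were higher and 19.5% lower. With equal totals they had 21 and 29. As deposited a peak assigned to Dnajb1 rose by 0.62 ± 0.04 and one assigned to Hspa1b fell by 0.52 ± 0.05. The p53 list had 16 higher (21.1%) and 13 lower (17.1%) of 76, and 10 and 29 with equal totals. Marker lists of other cells had 5 higher and 5 lower of 24 peaks (blood), 12 and 7 of 53 (endothelium and fat) and 19 and 15 of 74 (neural). Their shares, 20.8% to 25.7% higher and 13.2% to 20.8% lower, lay near the 23.6% and 19.5% of all peaks. With equal totals the counts were 4 and 7, 12 and 9, and 13 and 20.

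**Figure D5:**
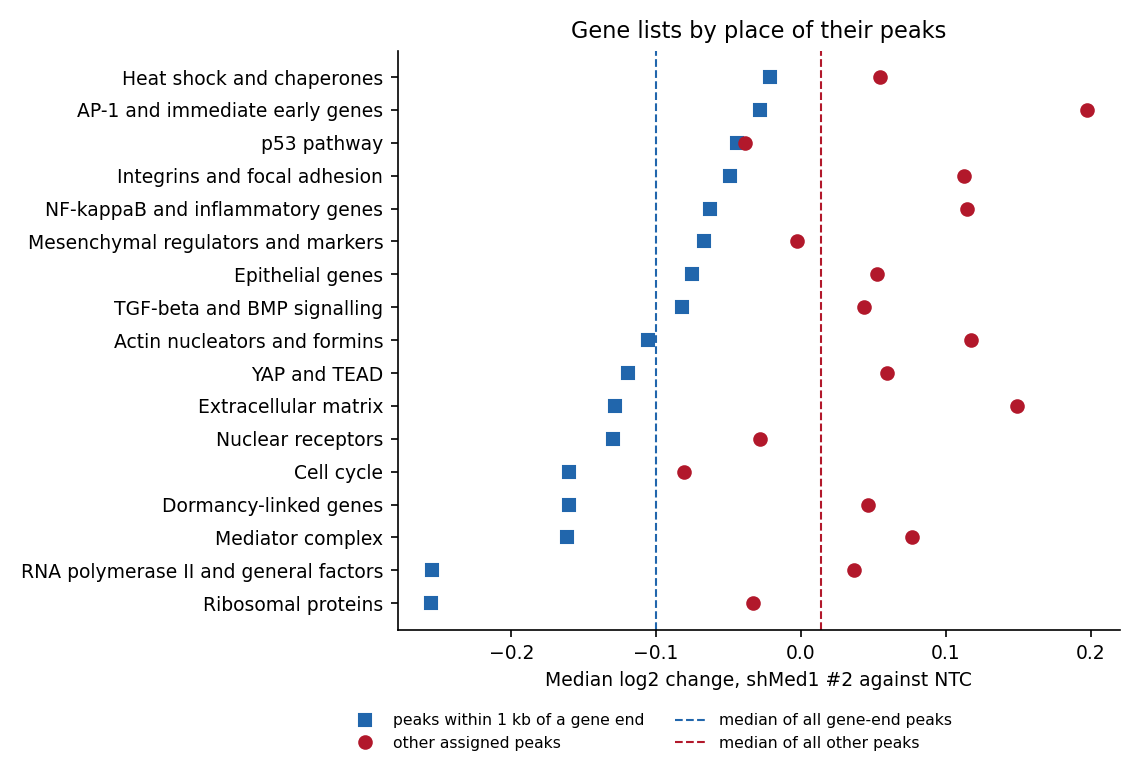
Median log2 change with shMed1 #2 of the peaks of 17 gene lists, at gene ends (blue squares) and elsewhere (red circles), with the medians of all such peaks as dashed lines. Ribosomal protein and RNA polymerase II genes lie lowest at gene ends (-0.26 and -0.25), and AP-1 genes lie highest elsewhere (0.20).

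The hairpins differed from each other at many of these sites. In the contrast of shMed1 #4 against shMed1 #2, which uses no control library, 21.5% of the peaks were called, 8.48% higher and 13% lower with shMed1 #4. Gene starts were higher with #4 at 12.9% and lower at 2.30%, and far sites were lower with #4 at 19.3% and higher at 8.33%. Gene-end peaks held 35.9%, 35.5% and 35.5% of the signal with #4, between the values of NTC and shMed1 #2, and 1.60 percentage points above shMed1 #2 (exact permutation p = 0.10). The strongest decile away from gene ends held 23.1% ± 0.25 with #4, which did not differ from the 23.4% of shMed1 #2 beyond their spread (exact permutation p = 0.40).

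The difference between the hairpins varied from peak to peak. Krt16 was 0.75 ± 0.06 lower on the log2 scale with #4 than with #2 (adjusted p = 5.84e-13), and the far peak near Dusp4 held 1610, 1454 and 1565 with #4, 0.88 ± 0.05 below #2. Against NTC the #4 values of that peak did not pass the test (0.09 ± 0.05, adjusted p = 0.204). The Pcdh18 peak held 339, 345 and 280 in NTC, 147, 174 and 138 with #2 and 379, 464 and 486 with #4, so it fell with one hairpin and rose with the other, 1.53 ± 0.11 apart. Timp3 held 675, 652 and 734 with #4, 0.84 ± 0.08 above #2, and Csf1, the macrophage growth factor, had an inner peak at 386, 442 and 427 with #2 and 747, 787 and 791 with #4. The Rbms3 window had a median of -0.49 with #2 and 0.63 with #4. In contrast, the Gm35364 peak, Skil and Smad3 differed between the hairpins by -0.06 ± 0.07, 0.02 ± 0.04 and -0.01 ± 0.06, and Tuba1b by 0.11 ± 0.05 (adjusted p = 0.0890), none of which passed the test.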

How the data were processed

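ATAC-seq was run on 3 NTC, 3 shMed1 #2 and 3 shMed1 #4 libraries. The submitters' processing notes name Trim Galore, BWA, MACS2 and featureCounts (Subread) as tools and mm10 (GRCm38) as the build. Versions, filters and how one peak set was made for all libraries were not given in those notes. Each deposited value is the signal of a 501-base peak, which the authors call a DESeq2-normalized count: the reads of a peak over the library's size factor. Reads in peaks were worked out from the step between values.

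Log2 of the value plus 1 was fitted with limma 3.58.1 (trend, R 4.3.3) in the 9 libraries with a mean per group, where the mean reached 10 (6 peaks did not). P-values are two-sided, Benjamini-Hochberg adjusted within a contrast over every peak (threshold 0.05), and errors of log2 changes are standard errors. The fit was tested on simulated data. Shares of signal were compared by exact permutation over libraries.

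Peaks were placed by their centre against 21631 protein-coding genes of RefSeq GRCm38.p6, first within 1 kb of a gene end, then in a gene body, then within 50 kb. Starts were told from 3′ ends where a promoter sequence gave the strand, which left 2401 gene-end peaks unresolved. This split, the motif counts and the tRNA class were added after the values were seen. Coordinates are as deposited, and whether they count from 0 or 1 is not stated.

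The comparison, its classes and the 20 gene lists (596 entries, all matched) were chosen with earlier results of these data known. Named peaks had a mean of at least 50 and groups that did not overlap. In each place 4 higher and 4 lower peaks were taken by smallest adjusted p, 1 per gene, and in each list up to 2 each way. The 3 longest runs each way, with gaps of at most 50 kb, the 4 genes of at least 10 peaks with the highest share of calls each way, the 3 highest and lowest 1 Mb windows, and every Med1 and Med4 peak were also named. Some peaks and windows that this rule names are not reported here. Alternatives covered scaling, pseudocount, filter, libraries in the fit, replicate block, quality weights and leaving out each library.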

Additional observations from a re-analysis of the deposited data

How the results depend on the processing

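The balance of higher and lower peaks depends on the scaling: 17928 and 14781 as deposited, 13498 and 22132 with equal totals, 15924 and 16829 with quantile scaling and 16602 and 15905 with cyclic loess. Signal shares are fixed under any single factor per library and were not computed with quantile scaling or cyclic loess. Gene-end peaks called higher numbered 1473 as deposited, 821 with equal totals, 819 with quantile scaling and 893 with cyclic loess. Strongest-decile peaks away from gene ends called lower numbered 211, 455, 522 and 530 in the same order. Leaving out 1 library at a time gave 15413 to 17236 peaks higher and 10348 to 14160 lower. At gene ends it gave 1168 to 1432 higher and 3315 to 4733 lower. In the strongest decile away from gene ends it gave 2629 to 2761 higher and 148 to 263 lower. The change in the gene-end share lay between -3.75 and -3.02 percentage points, and in the share of the strongest decile between 1.09 and 1.39. Neither share changed sign when a library was left out. Of 1665 values of named peaks under the alternatives, 1660 kept their call. Med1 was called with the 3 other scalings, and an inner Pecam1 peak lost its call without NTC replicate 3 or without shMed1 #2 replicate 2. Among the lists, the falls of the TGF-beta list went from 40 to 25 without NTC replicate 3 and to 26 without shMed1 #2 replicate 2, and those of the p53 list from 13 to 7 without NTC replicate 2. The replicate block gave 17566 higher and 14301 lower peaks. The deviations of same-numbered NTC and shMed1 #2 libraries from their group means correlated at -0.08, -0.002 and -0.04. Differently numbered libraries correlated at -0.04 to 0.08. The check thus gave no sign that the numbers pair the libraries, but with 3 libraries per group it cannot exclude shared handling. The planned edgeR and DESeq2 fits were not run, because the lowest nonzero values stood for 2 or 3 reads and the size of 1 read could not be checked on a peak. Intervals of depth cover peaks alone, since reads outside peaks were not analysed here.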
